A study of Mus musculus with 232 samples.

Results

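The data described here concern 10 genes that mark or control the epithelial and mesenchymal state, followed across single mouse embryonic stem cells (ESCs). The genes were chosen by name from the 42493 genes in the files. The rule used no measured values, but the choice was made with earlier results of these data known. They were Cdh1, Epcam, Krt8 and Krt18 on the epithelial side, Vim, Rhoc, Tgfbr2, Zeb1, Zeb2 and Snai1 on the mesenchymal side. All 10 were found, and 9 of them passed a mean of at least 5 counts per cell, as did 11178 genes in all. Zeb2 did not pass, and Tgfbr2 and Snai1 lay just above that limit.

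The study asked what single miRNAs do to mRNA levels within and between cells. WT ESCs (line V6.5) were set beside Dgcr8-/- ESCs that were mock-transfected, transfected with a miR-294 mimic or transfected with a let-7 mimic, and cells were captured 24 h after transfection. All cells were grown in serum medium with LIF and 2i, a pair of inhibitors of MEK (PD0325901) and GSK3 (CHIR99021). Dgcr8 is needed to make most miRNAs, so every transfected group lacked these miRNAs, while WT cells held their own. The labels call the let-7 mimic let-7i in the sample titles and let-7b in the series text, and the study's methods name let-7c; these share a seed, and the mimic is called let-7 here. The files held 232 sequencing runs of 182 cells, which were 16 WT, 60 mock-transfected Dgcr8-/-, 58 miR-294-transfected and 48 let-7-transfected cells.

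Each condition was captured on 1 microfluidic chip, and the labels name no separate cultures. A condition was therefore 1 sample, and condition and chip cannot be told apart. No test between conditions was made, so no p-value is given. Values are means over cells with the SD over cells, which measures variation between cells and not between cultures, and intervals cover counting error only. In the text "higher" and "lower" compare the cells sequenced.

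Epithelial cells adhere through E-cadherin (Cdh1) and EpCAM and carry the paired keratins 8 and 18, whereas mesenchymal cells carry vimentin (Vim). In an epithelial-mesenchymal transition, TGF-beta acting through its type II receptor (Tgfbr2) can raise the transcription factors Snai1, Zeb1 and Zeb2, each of which represses Cdh1, and the GTPase RhoC (Rhoc) acts on actin and motility. Naive ESCs express Cdh1 strongly and grow as compact colonies. miR-294 belongs to the miRNA family that dominates in ESCs, while let-7 miRNAs accumulate as cells differentiate.

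A miRNA pairs with mRNAs mainly through its seed, bases 2 to 8. The mature sequences are shown because the search for sites below rests on their seeds, which stand in capitals (RefSeq annotation on GRCm38.p6; miR-294 lies at chr7:3220691-3220712 on the plus strand and let-7i at chr10:122985698-122985719 on the minus strand).
mmu-miR-294-3p: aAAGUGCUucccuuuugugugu
mmu-let-7i-5p: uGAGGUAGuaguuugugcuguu
mmu-let-7b-5p: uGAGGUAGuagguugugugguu
mmu-let-7c-5p: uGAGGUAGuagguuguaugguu

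The complement of the miR-294 seed (AGCACTT) was found in the longest annotated 3'UTR of 3 of the 10 genes, namely Vim, Rhoc and Tgfbr2. Of 10299 genes with a tested level and an annotated 3'UTR, 18.2% held at least 1 such match, searched on the sense strand. Rhoc and Tgfbr2 had been chosen as reported targets of this seed family, and with Vim they are on a miR-294 target list of the study. The complement of the let-7 seed (CTACCTC) was found only in Snai1 among the 10 genes, at 2 places, against 10.6% of all genes with at least 1. The other 6 genes held neither. The 30-base windows around the matches, 1 of the 2 for Snai1, are shown on the sense strand, with the match in capitals (GRCm38).
Vim, chr2:13582638-13582667, plus strand: tagaaagaagctcAGCACTTaacaactgac
Rhoc, chr3:104794318-104794347, plus strand: catattacacaccAGCACTTtatatatttt
Tgfbr2 site 1, chr9:116089871-116089900, minus strand: tcgggatagcgttAGCACTTgacaatcagt
Tgfbr2 site 2, chr9:116087762-116087791, minus strand: tatcaaaacctaaAGCACTTattttcaatc
Tgfbr2 site 3, chr9:116085346-116085375, minus strand: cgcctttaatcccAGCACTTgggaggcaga
Snai1, chr2:167542084-167542113, plus strand: ccctgCTACCTCcccatcctcgctggcatc
The matches in Vim and at site 2 in Tgfbr2 were followed by an A, the base opposite the first base of the miRNA in the strongest class of site. The 30 bases around site 3 in Tgfbr2 also occurred in transcripts of 176 other genes, while those of the other windows shown occurred in no other gene. The 3'UTRs differed in length, from 342 bases in Vim and 416 in Rhoc to 731 in Snai1 and 6085 in Tgfbr2.

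Total counts per cell ranged from 513521 to 3979274, with medians from 1307481 in WT to 1574732 in mock-transfected cells, and 6119 to 10877 genes were detected per cell. Dgcr8 itself was counted in all 16 WT cells, with a mean of 118 ± 165 normalised counts (SD), and in 54 of 60 mock-transfected cells, with a mean of 51.5 ± 117. The count covers the whole gene, including any part outside the deletion, so it checks the genotype only weakly. In 4 pairs of cells, 3 of them let-7-transfected and 1 miR-294-transfected, the counts of different cells were as alike as runs of 1 cell. The closest pair, let-7 cells 82 and 83, differed by little more than sampling noise and was counted as 1 cell, which left 47 let-7-transfected and 181 cells in all. In 2 cells, let-7 cell 41 and WT cell 32, the runs differed as much as different cells do. All 8 ESC markers examined were detected in every condition, with the median of their summed level between 5266 normalised counts in let-7-transfected and 7669 in mock-transfected cells. Of 8 fibroblast markers, Col1a2, Col3a1, Lum and Postn were at 0 in all 181 cells, and the summed median was 0 in every condition, with a highest value of 350.5 in let-7 cell 5, all of it Dcn. Of 10 primitive endoderm markers, Sox17 and Gata6 were at 0 in all cells and 7 more were counted in under 10% of them. The summed median was 0 in every condition and the highest value was 605.8, all of it Lama1, in miR-294 cell 49. The 7 trophoblast markers had summed medians of 79.7 in WT, 24.4 in mock-transfected, 13.1 in miR-294-transfected and 40.7 in let-7-transfected cells, with Cdx2 and Hand1 counted in under 10% of cells. The 6 markers of primed epiblast or mesendoderm had summed medians of 227 in WT, 53.3 in mock-transfected, 77.2 in miR-294-transfected and 11.7 in let-7-transfected cells. Of these, Fgf5, Pou3f1 and T were counted in under 10% of cells. Dnmt3b had a mean of 277.5 in WT and 41.95 in let-7-transfected cells, while Otx2 went the other way, at 0 and 34.2. The part of these other cell types in the results was not tested.

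FPKM, which divides by transcript length, allows the genes to be ranked against each other. In WT cells Cdh1 was the highest of the 10, at a mean of 112.5 FPKM, followed by Vim at 66.9 and Epcam at 15.0, and the remaining 7 genes lay below 10. In mock-transfected Dgcr8-/- cells the order began with Vim at 245 FPKM, Cdh1 at 116, Krt8 at 81.6, Krt18 at 49.7 and Rhoc at 31.4. The place of Krt18 rested on mock cell 3, without which its mean was 12.1 FPKM. In miR-294-transfected cells Vim at 116 and Cdh1 at 73.9 FPKM led, with Krt8 next at 32.1. In let-7-transfected cells Vim reached 587 FPKM, Cdh1 98.3, Krt8 75.2, Epcam 51.5 and Rhoc 49.02. The transcription factors were low in every condition, with Zeb1 between 3.75 FPKM in WT and 28.4 in let-7-transfected cells and Snai1 at most 4.69.

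**Figure D1:**
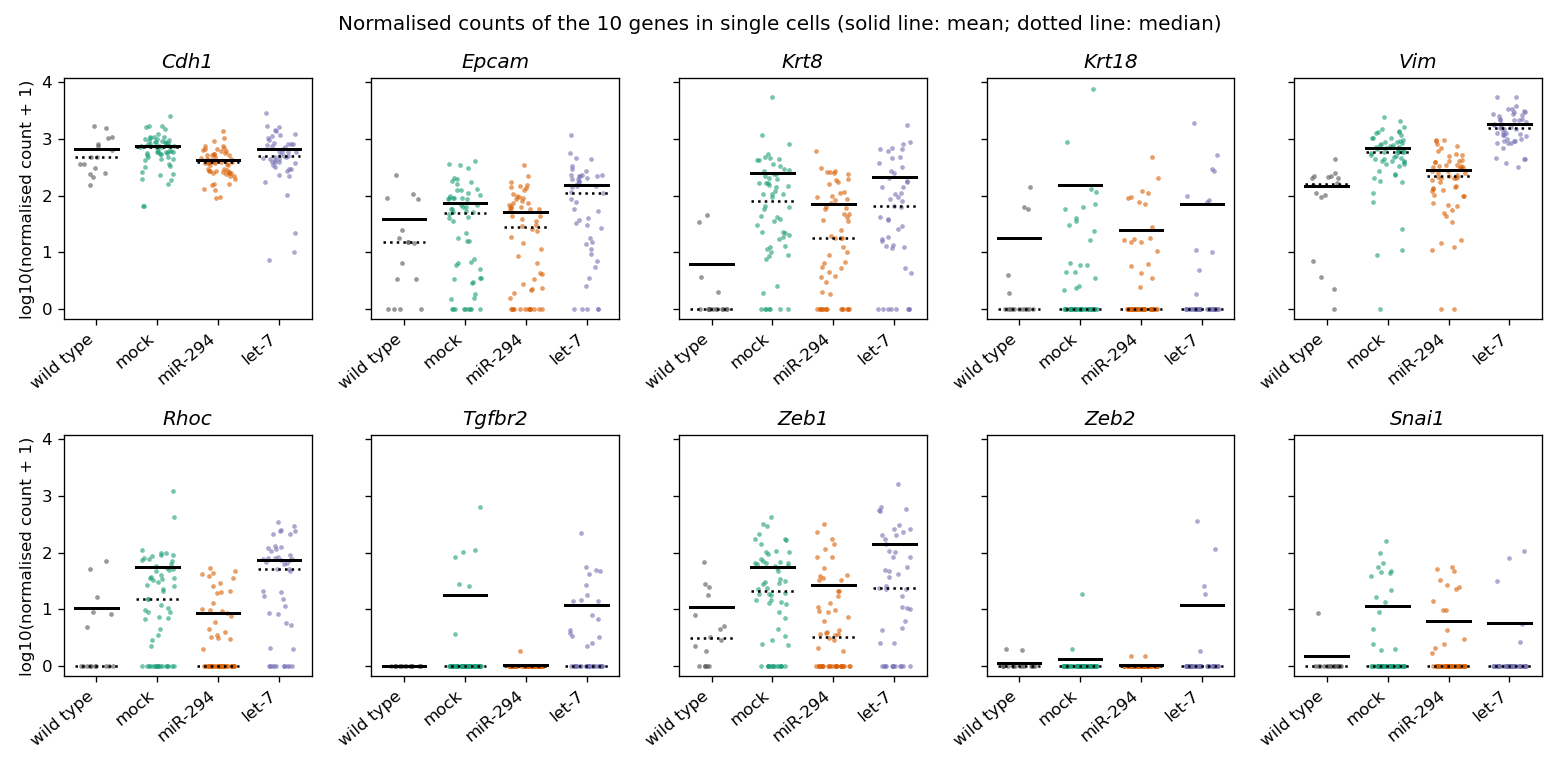
Normalised counts of the 10 genes in each of 181 cells, on a log10(count + 1) axis, by condition (16 WT, 60 mock, 58 miR-294 and 47 let-7 cells). Each point is a cell, the solid line is the mean and the dotted line the median; Cdh1 and Vim form compact clouds, whereas Krt18, Tgfbr2, Zeb2 and Snai1 are at 0 in most cells with a few high ones.

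Cdh1, which encodes E-cadherin, was counted in every cell of every condition. In WT cells it ranged from 151 to 1726 normalised counts (median 475, mean 652 ± 483 SD, n = 16 cells). In mock-transfected cells it ranged from 63.8 to 2548 (median 719, mean 740.3 ± 439, n = 60). In miR-294-transfected cells it ranged from 89.5 to 1405 (median 386, mean 419 ± 240.4, n = 58), and in let-7-transfected cells from 6.10 to 2925 (median 504, mean 664 ± 528, n = 47). The 4 ranges overlapped widely. The miR-294 mean was 1.77-fold below mock, and a miR-294-transfected cell lay above a mock-transfected cell in 23.8% of all pairs of such cells, where 50% would mean no separation. Such shares of pairs count a tie, as between a pair of cells at 0, as 0.5 unless ties are given apart. Mean Cdh1 therefore stood lowest in miR-294-transfected cells, and WT, let-7 and mock means lay within 1.14-fold of each other.

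Epcam, which encodes a second adhesion protein of epithelia, differed most between let-7-transfected cells and the rest. It was counted in 42 of 47 let-7-transfected cells (median 110.2, highest 1154, mean 152 ± 202 normalised counts). In mock-transfected cells the median was 47.7, the highest 401 and the mean 72.1 ± 93.95, with a count in 51 of 60 cells. Medians were 26.2 in miR-294-transfected and 13.9 in WT cells, with means of 49.6 ± 65.6 and 37.3 ± 61.6. Each condition held cells at 0, so the ranges overlapped throughout. The let-7 mean was 2.11-fold above mock, and a let-7-transfected cell was higher in 63.7% of pairs. Leaving out let-7 cell 85, the highest, or cell 2 brought the log2 ratio from 1.08 to 0.85 or 0.99, within 2-fold.

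Krt8, which encodes keratin 8, was nearly absent from WT cells. Only 4 of 16 WT cells had a count, the median was 0 and the highest 43.7 normalised counts (mean 5.02 ± 13.2). Among mock-transfected cells 53 of 60 had a count, with a median of 78.4 and a mean of 249.5 ± 731, and the highest value, 5571 in cell 3, made 37.2% of the sum. The mock mean was 49.7-fold above WT (log2 ratio 5.63), and a mock-transfected cell was the higher in 84.3% of pairs and tied in 8.75%. Single cells set the size of that ratio, which was 4.99 without mock cell 3, 6.67 without WT cell 90 and 6.31 without WT cell 95. In let-7-transfected cells, 39 of 47 had a count (median 64.8, highest 1788, mean 212 ± 339). In miR-294-transfected cells 44 of 58 had a count, with a median of 16.6, a highest value of 614 and a mean of 70.5 ± 112, which was 3.54-fold below mock (log2 ratio −1.82). Without mock cell 3 that log2 ratio was −1.18, still past 2-fold, while that of let-7 over mock turned from −0.23 to 0.41. Of 31-base stretches of Krt8 transcripts, 32.3% also occur in other genes, among them the pseudogene Krt8-ps, so its counts depend on how reads were shared out.

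Krt18, which encodes the partner of keratin 8, was 0 in most cells of every condition. It was counted in 5 of 16 WT, 21 of 60 mock-transfected, 20 of 58 miR-294-transfected and 11 of 47 let-7-transfected cells, so every median was 0. The means were 16.6 ± 39.1, 150.4 ± 979, 23.6 ± 71.8 and 69.3 ± 288 normalised counts in that order. Mock cell 3 held 7555, which was 83.7% of the mock sum, and let-7 cell 44 held 1892, or 58.1% of the let-7 sum. The ratios of Krt18 therefore rested on mock cell 3. The log2 ratio of miR-294 over mock was −2.67 with that cell and −0.078 without it (−3.27 without miR-294 cell 67). That of let-7 over mock was −1.12 with it and 1.48 without it (−0.996 without mock cell 18 and −2.34 without let-7 cell 44), and that of mock over WT was 3.18 with it and 0.59 without it (4.19 without WT cell 89). A miR-294-transfected cell was above a mock-transfected cell in 29.1% of pairs, below it in 28.3% and tied in 42.6%. Of the 31-base stretches of Krt18, 11.4% occur in other genes.

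**Figure D2:**
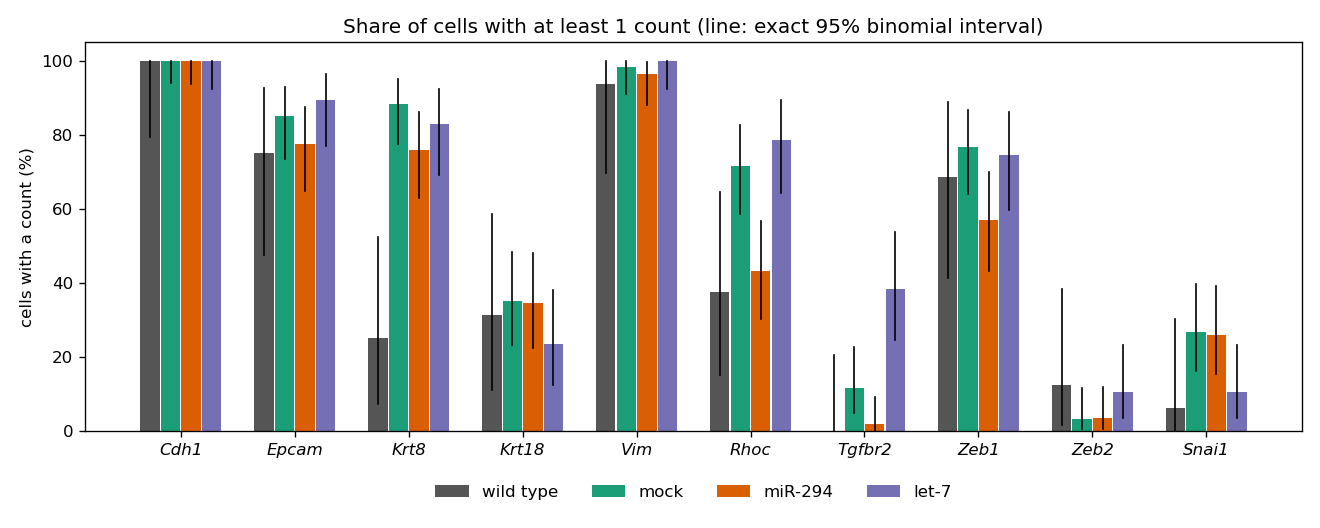
Share of cells with at least 1 count of each gene, in percent, by condition, with exact 95% binomial intervals as lines. Cdh1 and Vim are counted in nearly every cell; Krt8 is counted in 25% of WT and 88.3% of mock cells, Rhoc in 37.5% and 71.7%, and Tgfbr2 in 0% of WT, 11.7% of mock, 1.72% of miR-294 and 38.3% of let-7 cells.

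A few cells stood apart in the keratins and other epithelial genes, and they are named here after their values were seen. Mock cell 3 had the highest Krt8 and Krt18 of all cells and also 1219 normalised counts of Rhoc, 3497 of the tight junction gene Cldn4, 2034 of Grhl2, an epithelial transcription factor, 1354 of the desmosome gene Dsp and 1187 of Krt19. It held the highest value of 10 of the 29 tested genes of a list of epithelial junction and polarity genes, and no other cell held more than 2. The same cell had no count of Vim, Pou5f1, Nanog or Sox2, and 128 of the ESC gene Dppa5a against a mock median of 3010, but 1626 of Zfp42. Its total of 1594550 counts and its 7135 detected genes lay within the range of the other cells. Mock cell 18 had 1168 of Krt8, 869 of Krt18, 426 of Rhoc and 643 of Cldn4 beside 178 of Pou5f1 and 338 of Vim. Let-7 cell 44 had 1788 of Krt8, 1892 of Krt18, 2070 of Dsp, 1199 of Grhl2 and the highest Cdh1 of all cells, 2925, with no count of Pou5f1 or Epcam, 910.4 of Klf4 and 906 of Vim.

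**Figure D3:**
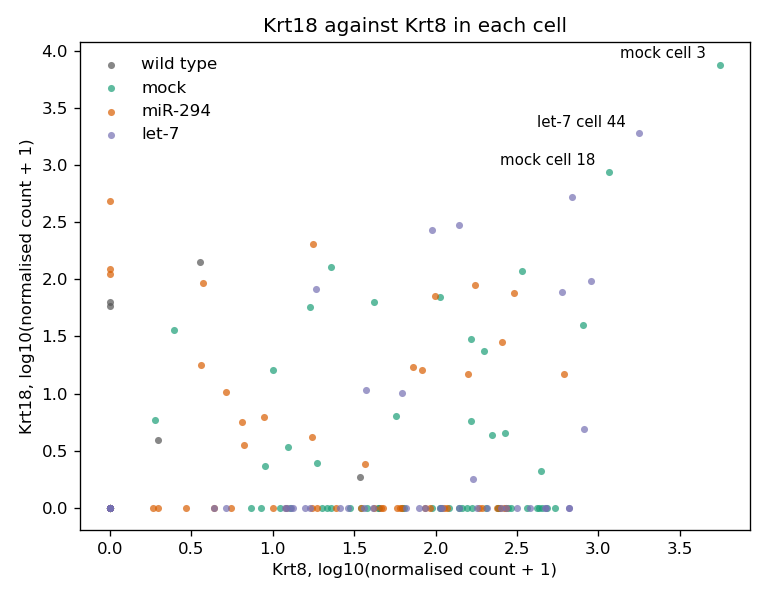
Krt18 against Krt8 in each of 181 cells, in log10(normalised count + 1), coloured by condition. Mock cells 3 and 18 and let-7 cell 44 lie at the upper right, while most cells with Krt8 have no count of Krt18.

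Vim, which encodes the intermediate filament vimentin, gave the clearest separation of the conditions. In WT cells it ranged from 0 to 435 normalised counts (median 158, mean 148 ± 117). In miR-294-transfected cells it ranged from 0 to 976.5 (median 219, mean 281 ± 247), and in mock-transfected cells from 0 to 2408 (median 590.0, mean 680.4 ± 486.5). In let-7-transfected cells it ranged from 319.8 to 5556 (median 1590, mean 1840 ± 1196). The lower quartile of let-7-transfected cells, 954, lay above the upper quartile of mock-transfected cells, 884, although the ranges overlapped. Vim was 4.59-fold higher in mock-transfected than in WT cells, 2.42-fold lower in miR-294-transfected than in mock-transfected cells, and 2.70-fold higher in let-7-transfected than in mock-transfected cells. In 88.9% of pairs a mock-transfected cell exceeded a WT cell, in 21.8% a miR-294-transfected cell exceeded a mock-transfected cell, and in 84.7% a let-7-transfected cell exceeded a mock-transfected cell. No single cell decided these values, as leaving out any 1 cell kept the log2 ratios between −1.34 and −1.21 for miR-294 over mock and between 1.37 and 1.499 for let-7 over mock. The 3'UTR of Vim holds 1 of the miR-294 seed matches shown above.

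Within single cells the balance of Vim and Cdh1 also differed between conditions. Vim exceeded Cdh1 in FPKM in 5 of 16 WT cells (31.2%, exact 95% interval 11.02 to 58.7%). It did so in 34 of 58 miR-294-transfected cells (58.6%, 44.9 to 71.4%), in 46 of 60 mock-transfected cells (76.7%, 63.96 to 86.6%) and in 46 of 47 let-7-transfected cells (97.9%, 88.7 to 99.9%). Mean Cdh1 was 98.3 FPKM in let-7-transfected and 116 in mock-transfected cells, while median Cdh1 was 74.1 and 112. Median Vim was 502 and 214 FPKM in the same order. The part of each gene in the higher share was not tested.

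**Figure D4:**
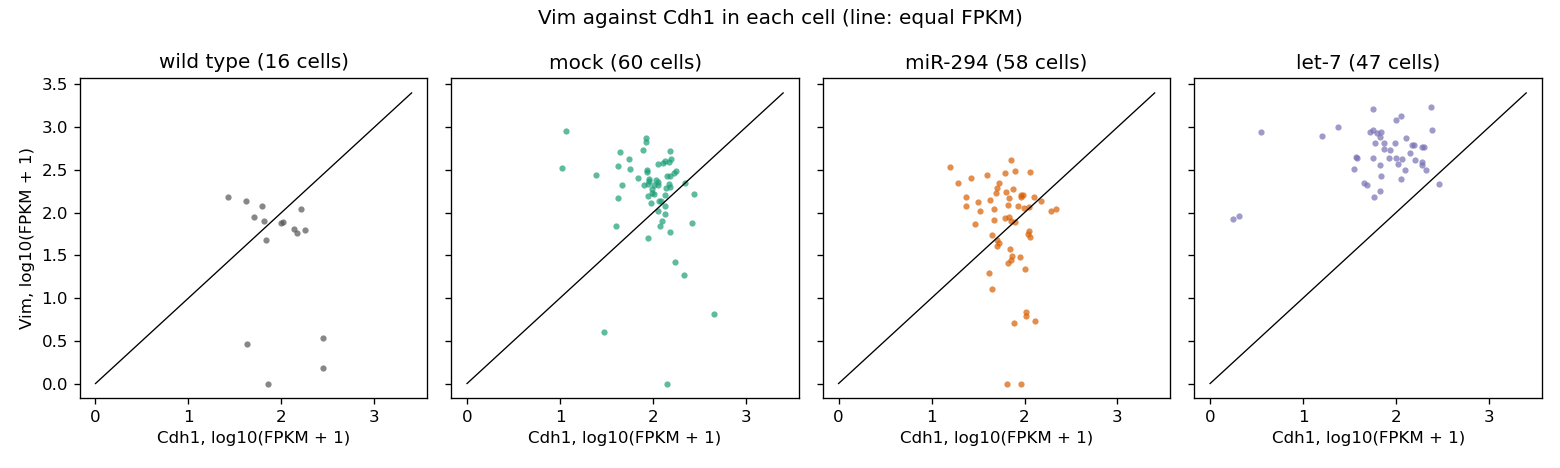
Vim against Cdh1 in each cell, in log10(FPKM + 1), with 1 panel per condition and the line of equal FPKM. WT cells lie mostly below the line (5 of 16 above) and let-7 cells almost all above it (46 of 47).

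Rhoc, which encodes a GTPase of actin and motility, was counted in 6 of 16 WT, 43 of 60 mock-transfected, 25 of 58 miR-294-transfected and 37 of 47 let-7-transfected cells. WT cells ranged from 0 to 68.6 normalised counts (median 0, mean 9.50 ± 20.1). MiR-294-transfected cells ranged from 0 to 51.8 (median 0, mean 7.48 ± 13.6). Mock-transfected cells ranged from 0 to 1219 (median 14.1, mean 54.3 ± 165), with mock cell 3 highest, and let-7-transfected cells from 0 to 340 (median 51, mean 73.3 ± 87.95). Low values thus marked WT and miR-294-transfected cells, and a miR-294-transfected cell was above a WT cell in 33.5% of pairs, below it in 30.9% and tied in 35.6%. The miR-294 mean was 7.26-fold below mock, at a log2 ratio of −2.86, or −2.21 without mock cell 3. For let-7 over mock the log2 ratio was 0.43 with mock cell 3 and 1.09 without it.

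Tgfbr2, which encodes the type II receptor of TGF-beta and holds 3 matches to the miR-294 seed, was rare in all conditions. No count was found in the 16 WT cells, which allows a share of up to 18.8% of cells with a count (3 of 16; the exact 95% upper limit is 20.6%). Counts were found in 7 of 60 mock-transfected cells (11.7%, exact interval 4.82 to 22.6%), in 1 of 58 miR-294-transfected cells (1.72%, 0.044 to 9.24%) and in 18 of 47 let-7-transfected cells (38.3%, 24.5 to 53.6%). In mock-transfected cells 65% of the mean of 16.6 ± 85.8 normalised counts lay in cell 77, with 648. The let-7 mean was 10.9 ± 33.6, with a highest value of 217. The 58 miR-294-transfected cells together had 2 counts, against 859 in mock-transfected cells, a log2 ratio of summed counts of −8.89 with a 95% counting interval from −11.9 to −7.03. That interval treats reads and not cells as the unit. A miR-294-transfected cell lay below a mock-transfected cell in 11.7% of pairs, above it in 1.52% and tied in 86.8%. The exact intervals of their shares of cells with a count overlapped. Summed mock counts were at least 75.4-fold above WT by counting error, taking 3 counts over the WT cells in place of 0. Without mock cell 77 this limit was 28.5-fold. The exact 95% upper limit for 0 counts in place of 3 gives 61.4-fold and 23.2-fold. These limits also treat reads as the unit. The exact intervals of the shares of cells overlapped (up to 20.6% in WT and 4.82 to 22.6% in mock-transfected cells), so the cells settle no difference. For let-7 over mock the log2 ratio of means was −0.61 with mock cell 77 and 0.88 without it, so its direction rested on 1 cell. Without let-7 cell 15 it was −1.38. The exact intervals of the let-7 and mock shares of cells with a count, given above, did not overlap. A let-7-transfected cell lay above a mock-transfected cell in 34.8% of pairs, below it in 10.7% and tied in 54.5%. Those intervals do not cover variation between cultures.

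Zeb1, which encodes a repressor of Cdh1, was counted in 11 of 16 WT, 46 of 60 mock-transfected, 33 of 58 miR-294-transfected and 35 of 47 let-7-transfected cells. WT cells ranged from 0 to 67.1 normalised counts (median 2.01, mean 9.65 ± 17.6). Mock-transfected cells ranged from 0 to 416 (median 19.9, mean 55.2 ± 84). MiR-294-transfected cells ranged from 0 to 320.4 (median 2.24, mean 25.9 ± 59.8) and let-7-transfected cells from 0 to 1654 (median 22.6, mean 139 ± 283). The mock and let-7 medians lay close together, and a let-7-transfected cell was above a mock-transfected cell in 53.8% of pairs, whereas the upper quartile was 154 in let-7-transfected and 64.9 in mock-transfected cells and the let-7 mean was 2.51-fold above mock. Without let-7 cell 38, which held 25.4% of the let-7 sum, that log2 ratio was 0.94 and no longer past 2-fold. The miR-294 mean was 2.13-fold below mock (log2 ratio −1.09), and leaving out any 1 of mock cells 5, 15 and 41 brought it within 2-fold (−0.97, −0.98 and −0.92).

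Zeb2, which encodes a relative of Zeb1, was almost absent. Its counts over all cells were 2 in WT, 12 in mock-transfected and 2 in miR-294-transfected cells, in 2 cells of each condition. In let-7-transfected cells 447 counts were found in 5 cells, of which cell 17 held 69.6% of the normalised sum, with 356. The log2 ratio of summed counts of let-7 over mock was 5.76, with a counting interval from 4.94 to 6.72. Summed counts of mock and WT cells differed by a log2 ratio of 0.66 with an interval from −1.51 to 3.86, which does not settle a direction.

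Snai1, which encodes a further repressor of Cdh1 and carries both let-7 seed matches among these genes, was counted in 1 of 16 WT cells, at 7.43 normalised counts. It was counted in 16 of 60 mock-transfected cells (highest 160, mean 10.1 ± 27.2), 15 of 58 miR-294-transfected cells (highest 54.8, mean 5.05 ± 12.7) and 5 of 47 let-7-transfected cells (highest 106.0, mean 4.68 ± 19.3). Every median was 0. The let-7 mean was 2.16-fold below mock, at a log2 ratio of −1.11, which ranged from −2.03 without let-7 cell 6 to −0.69 without mock cell 69, was −1.71 without let-7 cell 80, and lay within 2-fold without mock cell 45 (−0.97) or 92 (−0.89) too. The exact intervals of the shares in mock-transfected cells, 16.1 to 39.7%, and in let-7-transfected cells, 3.55 to 23.1%, overlapped.

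The comparison of miR-294-transfected with mock-transfected cells addressed what an ESC miRNA does in cells without most other miRNAs. Of the 9 genes with a mean of at least 5 counts, 6 were lower by at least 2-fold (Krt8, Krt18, Vim, Rhoc, Tgfbr2 and Zeb1), where 20.4% of all tested genes were, and 0 were higher, where 5.84% of all genes were. Snai1 lay just short of 2-fold (log2 ratio −0.999, from −1.27 to −0.58 when single cells were left out), and Cdh1 (−0.82) and Epcam (−0.54) were lower by less. All genes together had a median log2 ratio of −0.28, and relative to that median Vim stood at −0.997 and Zeb1 at −0.81, just inside 2-fold. Without mock cell 3 the number lower was again 6, with Snai1 in and Krt18 out. The call of Tgfbr2 rested on counts in 7 of 60 mock-transfected and 1 of 58 miR-294-transfected cells. The lower genes came from both sides, keratins as well as mesenchymal genes. Genes with no miR-294 seed match had a median log2 ratio of −0.22, those with 1 match −0.47 and those with 2 or more −0.67, while the median 3'UTR length of the same groups grew from 986 to 2266 and 3896 bases. Vim (−1.27), Rhoc (−2.86) and Tgfbr2 (−8.89, summed counts) lay below the medians of their classes. All of them are on a miR-294 target list of the study. Rhoc and Tgfbr2 had been chosen as reported targets of the seed family. The authors had left out miR-294-transfected cells without lower levels of known targets. The matches and lower levels of these genes are thus not independent of selection. Krt8 and Krt18, with no match, had −1.82 and −2.67.

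**Figure D5:**
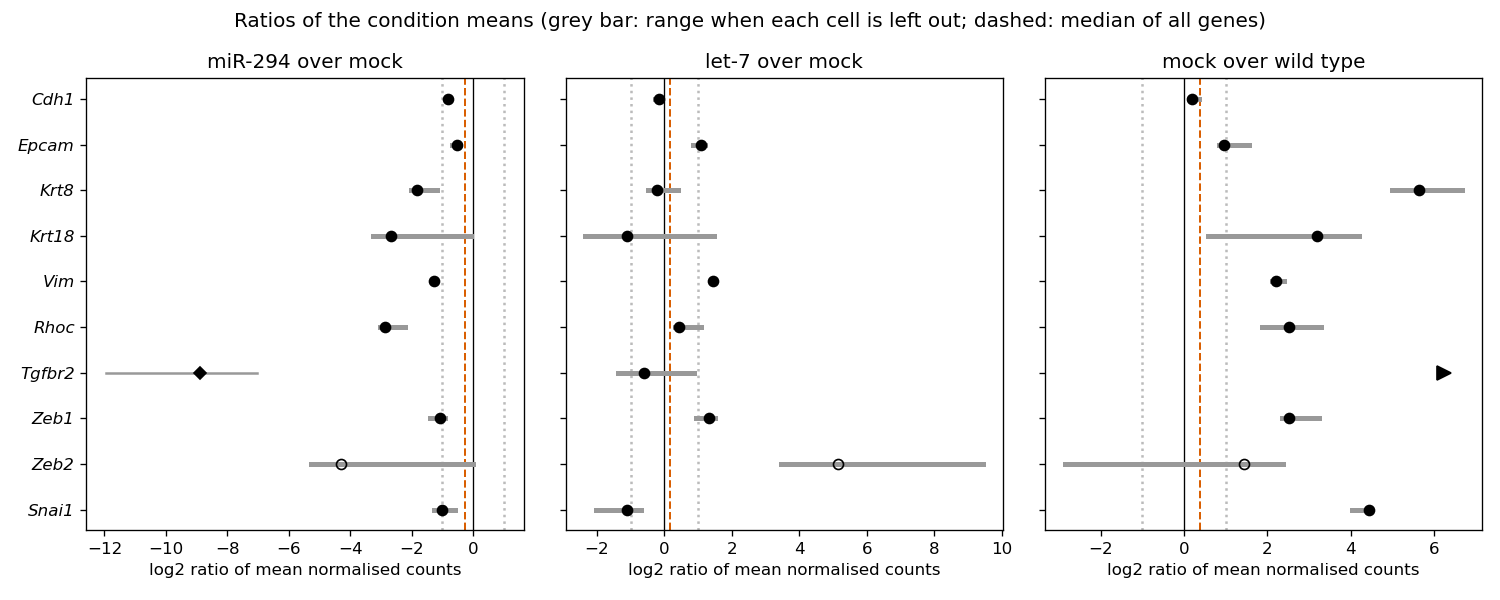
log2 ratios of mean normalised counts for the 10 genes in 3 comparisons that share the mock cells. Points are the ratios (open for Zeb2, which did not pass the count limit). Grey bars are the range when each cell is left out in turn. Dashed lines are the median of all genes and dotted lines 2-fold. For Tgfbr2 the diamond is the ratio of summed counts with its counting interval. The triangle is a lower limit that covers counting error only.

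In the wider lists of genes, the miR-294 comparison gave 11 of 29 tested epithelial junction and polarity genes lower by at least 2-fold and 3 higher, with a median log2 ratio of −0.64. These are 37.9% and 10.3% of that list, beside 20.4% and 5.84% of all genes. Without mock cell 3 the log2 ratios of Dsp (−2.44 to −0.79) and Cldn4 (−1.88 to −0.71) came within 2-fold. The lowest included Cldn7, a tight junction gene, at a mean of 9.16 ± 33.1 normalised counts in mock-transfected and 0.19 ± 1.04 in miR-294-transfected cells, and at 5.65 in mock-transfected cells without cell 18. Among those higher was Pkp3, a plakophilin of desmosomes, at 1.39 ± 5.46 in mock-transfected and 6.84 ± 25.04 in miR-294-transfected cells, and at 3.95 in the latter without cell 42. Of 12 tested mesenchymal genes and transition factors 6 were lower and 1 higher (median −1.08), or 50% and 8.33%. Axl, a receptor kinase, was counted in 10 of 60 mock-transfected cells, at a mean of 14.5 ± 73.5, and in 4 of 58 miR-294-transfected cells, at 0.94 ± 4.88. Without mock cell 35 the mock mean of Axl was 5.49. Tagln, which encodes an actin-binding protein, was counted in 5 of 60 and in 2 of 58 cells, at 14.5 ± 68.3 and 0.30 ± 1.60, and at 6.38 in mock-transfected cells without cell 18. Of 8 intermediate filament genes 4 were lower and 0 higher (median −0.97), with Lmna, which encodes lamin A, at 230 ± 508 in mock-transfected and 54.8 ± 75.9 in miR-294-transfected cells. Krt19, another of the lower genes, came within 2-fold without mock cell 3 (log2 ratio −3.58 to −0.95). Of 22 TGF-beta receptor and SMAD genes 3 were lower (13.6%) and 2 higher (9.09%), with a median of −0.29, near the median of all genes. Acvr1, a type I receptor, was at 24.1 ± 159 in mock-transfected and 4.23 ± 17.1 in miR-294-transfected cells, and at 3.82 in mock-transfected cells without cell 3, so its direction rested on that cell.

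The comparison of let-7-transfected with mock-transfected cells, which uses the same mock-transfected cells, addressed what a miRNA of differentiated cells does. Of the 9 genes, 3 were higher by at least 2-fold (Epcam, Vim and Zeb1), where 18.8% of all tested genes were, and 2 were lower (Krt18 and Snai1), where 9.17% of all genes were. Without mock cell 3, 5 were higher, with Krt18 and Rhoc added, and 1 was lower. The median log2 ratio of all genes was 0.18, and relative to it Epcam stood at 0.90, Vim at 1.25 and Zeb1 at 1.15. Cdh1 (−0.16) and Krt8 (−0.23) lay within 2-fold. Genes without a let-7 seed match had a median of 0.20, and those with 2 or more −0.41, again with 3'UTRs of different median length (1078 and 3970 bases). Snai1, with 2 matches, had −1.11, and it is not on the let-7c target list of the study. In miR-294 over mock, where it has no match, Snai1 had −0.999.

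Of 12 mesenchymal genes and transition factors 6 were higher and 0 lower by at least 2-fold in let-7-transfected cells, with a median log2 ratio of 1.01, where 18.8% of all genes were higher and 9.17% lower. The 12 tested were part of 30 listed. A gene could pass the limit of 5 counts over all cells through let-7-transfected cells alone. Fbn1, at 0 in WT and 0.63 in miR-294-transfected cells, passed mainly that way. Cdh2, at 0.96 in WT and 3.13 in miR-294-transfected cells, also passed mainly through let-7-transfected cells. So did Pkp3 (0 and 6.84) and Tgfb2 (0.27 and 3.01) of the lists below. The numbers of higher genes in these lists are thus not independent of the limit. Without let-7 cell 80 the log2 ratio of Tagln went from 1.11 to −3.31. The highest were Fbn1, a matrix protein, at 1.93 ± 10.35 normalised counts in mock-transfected and 21.3 ± 90.6 in let-7-transfected cells (11.1 without let-7 cell 33), and Cdh2, which encodes N-cadherin. Cdh2 was counted in 30 of 60 mock-transfected cells, with a mean of 6.11 ± 15.96, and in 37 of 47 let-7-transfected cells, with a mean of 60.5 ± 120. Of 29 junction genes 6 were higher (20.7%, near the share of all genes) and 1 lower (3.45%), with a median of 0.13. Without mock cell 3 the log2 ratios of Cldn3 (2.59), Cldn4 (1.09) and Grhl2 (2.02) were past 2-fold too. Pkp3 was at 1.39 ± 5.46 in mock-transfected and 43.05 ± 103 in let-7-transfected cells, while Spint1, a protease inhibitor of epithelia, was at 143 ± 258 and 52.1 ± 96.4. Of 22 TGF-beta genes 6 were higher (27.3%) and 2 lower (9.09%), with a median of 0.36. The ligand gene Tgfb2 was counted in 6 of 60 mock-transfected cells, at a mean of 3.51, and in 21 of 47 let-7-transfected cells, at 45.7 ± 91.5. The co-receptor gene Tgfbr3 was counted in 12 of 60 and in 1 of 47, with means of 37.9 ± 103 and 0.019. Of 8 intermediate filament genes 2 were higher, Plec (364 and 984) and Nes (10.99 and 35.7), and 1 was lower, Lmnb1 (19.7 and 6.09). All 8 ESC markers were below mock, 1 of them, Nanog, by more than 2-fold (648 ± 416 against 219.5 ± 326).

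The comparison of mock-transfected Dgcr8-/- with WT cells addressed the loss of most miRNAs. Of the 9 genes, 7 were higher by at least 2-fold in Dgcr8-/- cells (Krt8, Krt18, Vim, Rhoc, Tgfbr2, Zeb1 and Snai1), where 32.1% of all tested genes were, and 0 were lower, where 9.36% of all genes were. Without mock cell 3, 6 were higher, as Krt18 dropped out. Tgfbr2 is counted as higher because it was at 0 in WT cells, although only 7 of 60 mock-transfected cells had a count. Cdh1 (log2 ratio 0.18) and Epcam (0.95) lay within 2-fold, and the median of all genes was 0.37. Only 16 WT cells entered, and single WT cells moved the low genes, so that the log2 ratio of Rhoc was 2.51 with all cells and 3.29 without WT cell 39 (1.86 without mock cell 3), and that of Zeb1 was 2.52 and 3.25 without WT cell 37. Epcam passed 2-fold when WT cell 32, 37, 51 or 91 was left out (1.08, 1.09, 1.56 and 1.13). The only WT cell with a count of Snai1 held 8 counts, and the log2 ratio of summed counts was 4.90, with a counting interval from 3.91 to 6.11. That interval treats reads as the unit. The exact intervals of the shares of cells with Snai1 overlapped (0.16 to 30.2% in WT and 16.1 to 39.7% in mock-transfected cells). In Snai1 68.75% of pairs were tied, so the cells settle no difference.

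Of 29 junction genes 17 were higher and 3 lower by at least 2-fold in Dgcr8-/- cells (58.6% and 10.3%, median log2 ratio 1.68). Mock cell 3 held the highest value of 10 of these genes. Without it the log2 ratio of Cldn3 went from 2.83 to −0.035, that of Cldn4 from 1.84 to 0.67 and that of Prss8 from 1.74 to 0.45. Dsp was counted in 0 of 16 WT and 13 of 60 mock-transfected cells, whereas Cldn6 was at 16.7 ± 63.1 normalised counts in WT and 0.23 ± 1.58 in mock-transfected cells, and at 0.97 in WT cells without cell 39. Of 12 mesenchymal genes 7 were higher and 0 lower (median 1.26), and of 8 intermediate filament genes 6 and 0 (median 2.54). Of 22 TGF-beta genes 8 were higher (36.4%) and 2 lower (9.09%), near the shares of all genes (32.1% and 9.36%), with a median of 0.15. The endoglin gene Eng was counted in 0 of 16 WT and 26 of 60 mock-transfected cells, while Acvr2b, a type II activin receptor, was at 27.1 ± 55.8 in WT and 4.51 ± 16.7 in mock-transfected cells.

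Set against WT cells, miR-294-transfected cells lay close in some of the genes and not in others. Of the 9 genes, 3 were higher by at least 2-fold, namely Krt8 (log2 ratio 3.81), Snai1 (3.44) and Zeb1 (1.43), and 0 were lower. Among all genes 24% were higher, which includes genes at 0 in WT cells, and 13.3% were lower. Tgfbr2 had 2 counts against 0 and gives no direction, although a gene at 0 in WT cells is counted as higher by the rule, which makes the number 4. Rhoc (−0.34), Krt18 (0.51), Epcam (0.41), Cdh1 (−0.64) and Vim (0.92) lay within 2-fold. Single cells moved these too: without WT cell 39 Vim was at 1.12 and Rhoc at 0.43, without WT cell 91 Rhoc was at 0.13, without WT cell 51 Epcam was at 1.02, and Krt18 was at 1.52 without WT cell 89 and −0.089 without miR-294 cell 67. Krt8 was at 4.85 without WT cell 90 and 4.49 without WT cell 95, and Zeb1 at 2.16 without WT cell 37. A miR-294-transfected cell exceeded a WT cell in Krt8 in 71.1% of pairs and tied in 18.1%. In Zeb1 it was above in 43.3%, below in 43.2% and tied in 13.5%. In Snai1 it was above in 25.3%, below in 5.17% and tied in 69.5%.

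Across cells of 1 condition, the 9 genes with a mean of at least 5 counts were compared in pairs. Correlations are given as a description, on log2(normalised count + 1), and cells share the chip and the depth of their libraries. Krt8 and Krt18, whose proteins pair, had Pearson's r of 0.29 over 60 mock-transfected, 0.40 over 47 let-7-transfected, 0.041 over 58 miR-294-transfected and 0.019 over 16 WT cells. Spearman's rho for the same pair was 0.14, 0.42, 0.078 and 0.43. Cdh1 and Vim had r of −0.33 in mock-transfected, −0.26 in miR-294-transfected and −0.34 in WT cells and 0.30 in let-7-transfected cells, where rho was 0.15. Cdh1 and its repressor Zeb1 had r of −0.49 in WT (rho −0.51), −0.30 in let-7-transfected, −0.096 in mock-transfected and 0.048 in miR-294-transfected cells. Cdh1 and Snai1, the other tested repressor of Cdh1, had r of 0.17, 0.185, 0.12 and 0.065 in the same order. In WT cells Cdh1 and Rhoc had r of −0.51. Let-7 cells 71 and 70, a near-identical pair, were lowest in Cdh1, with 319.8 and 373 of Vim and 552 and 594 of Zeb1. The let-7 medians were 1590 and 22.6, and the part of this pair in the let-7 values of r was not tested. Zeb1 and Vim had −0.36 in miR-294-transfected, −0.11 in mock-transfected, −0.076 in let-7-transfected and −0.0046 in WT cells. The 16 WT cells also gave the highest r of any pair, 0.68 for Krt8 and Snai1, and Snai1 was counted in 1 of those cells.

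After each condition's mean was removed, the genes most like the members over all 181 cells were found by Pearson's r, against a median over all genes between −0.0035 and 0.048. For Cdh1 they were Mat2a (0.46), Actg1 (0.42) and Agtrap (0.39). For Krt8 they were Cldn4 (0.41), Lgals3 (0.37) and Sfn (0.34), and for Krt18 Selenon (0.41), H2-Aa (0.38) and Dsp (0.37). Rhoc was closest to Cnn2 (0.41), Arpc4 (0.36) and Pdlim7 (0.35), all of which encode proteins of the actin cytoskeleton. Tgfbr2 was closest to Cldn7 (0.44), Pstpip1 (0.40) and Capg (0.39), and Vim to Gpx1 (0.37), Palld (0.35) and D8Ertd738e (0.32). For Zeb1 and Epcam the highest r was 0.28 (Bmi1) and 0.30 (N4bp2). Rhoc and Snai1 had r of 0.24 and 0.26 with the number of genes detected in a cell, and the others 0.144 or less, and the part of that number in the values above was not tested.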

How the data were processed

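Single-cell libraries were made on the Fluidigm C1 with Nextera XT. The authors aligned the reads and assigned them to Gencode M4 genes with RSEM 1.2.19, and deposited for every run and gene an expected count, which is not normalised, and an FPKM, scaled for length and depth. The authors had left out shallow or low-diversity cells and transfected cells without lower levels of known targets, so the cells were in part selected on expression. Strand use in counting is not given in the sources used here, so a gene and an antisense partner cannot be told apart.

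Where a cell had several runs, its expected counts were added up and then rounded to whole numbers. Let-7 cells 82 and 83, with a chi-square per gene below 2, were averaged. Counts were divided by DESeq-type size factors (medians of ratios over the 862 genes counted in every cell). A ratio is that of condition means, with "past 2-fold" as the call, and genes at 0 in 1 condition of a pair count as past it. The limit of 5 counts is a mean over all cells, so a gene can pass it through 1 condition alone. Fold limits against 0 used 3 counts over the condition. Intervals are exact at 95% (Poisson for counts, Clopper-Pearson for shares), and cover counting error only, since reads without molecular identifiers are not independent molecules. The design called for no test, because a condition was 1 sample. The ratio code was tested on simulated counts. FPKM of a cell's runs were averaged with the run totals as weights. Sites were searched in the longest Gencode M21 3'UTR of each gene (GRCm38), a later annotation than that of the counts, and symbols matched 41674 of 42493 gene IDs. Python 3.11.15, numpy 2.4.6, scipy 1.17.1, pandas 2.3.3, R 4.3.3 and edgeR 4.0.16 (TMM factors only) were used.

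The 10 genes and the lists were chosen with earlier results of these data known. Named were, besides the 10, up to 2 of the highest and lowest genes past 2-fold in each list and comparison, and the most correlated genes of each (3, or 1 where r was low). Some results under this rule, 1 gene list and 1 site are not reported here. Alternatives were TMM, counts scaled to each cell's total or summed over a condition, mean log2 values with pseudocounts of 1 and 10, the first run of a cell, FPKM, leaving out cells titled MIR_294, counting every cell, and, added after the data were seen, mock cell 3 left out, all near-identical pairs counted once, ratios less the median of all genes and each cell left out.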

Additional observations from a re-analysis of the deposited data

How the results depend on the processing

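No paired analysis was possible because the replicate numbers in the labels count sequencing runs of a cell and the result comes from no test. Of 454 log2 ratios of the 10 genes recomputed under 12 alternatives, 443 kept their sign and 399 their side of 2-fold. The alternatives that took means of log2 values moved most calls, 15 of 38 with a pseudocount of 1 and 16 of 38 with 10, which shrink genes at 0 in most cells by construction. Krt18 reversed, to 0.027 (miR-294 over mock, pseudocount 1), 0.0015 (let-7 over mock, pseudocount 10) and 1.48 (let-7 over mock, without mock cell 3), and so did Zeb2 in mock over WT, to −0.031 (pseudocount 1). The other 7 changes of sign were within 2-fold: Tgfbr2 in let-7 over mock (0.73 and 0.18 with pseudocounts of 1 and 10), Krt8 in let-7 over mock (0.41 without mock cell 3), Cdh1 in mock over WT (−0.025 summed, −0.19 less the median) and Rhoc in miR-294 over WT (0.00068 summed, 0.014 with a pseudocount of 1). Among the 9 genes, let-7 over mock gave 1 lower by 2-fold under TMM, scaling to cell totals, first runs and FPKM, 0 with either pseudocount and 1 without mock cell 3, where 5 were higher. With a pseudocount of 10 it gave 1 higher, mock over WT 3 higher, miR-294 over WT 1 higher and miR-294 over mock 3 lower, and with 1 miR-294 over WT gave 2 higher. Counts over all genes moved more than 1.5 times as follows. For miR-294 over mock, 937 were lower with a pseudocount of 1, 123 higher and 298 lower with 10, 4207 and 6740 among all genes with a count, 74 and 632 among genes with a mean of at least 50 counts, and 1012 were higher relative to the median of all genes. For let-7 over mock, 1281 were higher with a pseudocount of 1, 389 higher and 396 lower with 10, 6839 and 4550 among all genes with a count, and 453 and 318 above 50. For mock over WT, 2132 were higher with a pseudocount of 1, 906 higher and 327 lower with 10, 9545 and 2957 among all genes with a count, 1125 and 259 above 50, and 1830 lower relative to the median. For miR-294 over WT, 1724 were higher and 735 lower with a pseudocount of 1, 528 and 204 with 10, 8334 and 3606 among all genes with a count, and 683 and 392 above 50. The cause was not tested beyond the number of genes each filter keeps. At the depth used, thinning every cell to 500000 counts left each share of cells with a count within its exact interval, and no alternative replaces the missing replicate of each condition. Counting all near-identical pairs once and leaving out the 2 cells with unlike runs moved Snai1 (miR-294 over mock, −1.12) and Epcam (mock over WT, 1.08) past 2-fold. Zeb1 in miR-294 over mock lay within 2-fold under TMM (−0.93), scaling to cell totals (−0.88), summed counts (−0.81) and FPKM (−0.64). Tgfbr2 in miR-294 over mock lay within 2-fold with pseudocounts of 1 (−0.66) and 10 (−0.34).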

Other observations

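Outside the genes chosen by rule, the gene least like Cdh1 over all cells was another cadherin gene, Cdh6, with r of −0.53 after each condition's mean was removed. It was picked out after its value was seen, and the r rests on let-7-transfected cells, where it was −0.74 over 47 cells, with a rho of −0.44. Cdh6 was counted in 0 of 16 WT, 1 of 60 mock-transfected, 2 of 58 miR-294-transfected and 8 of 47 let-7-transfected cells. The 3 let-7-transfected cells with the least Cdh1, cells 71, 70 and 38, had 6.10, 9.12 and 20.3 normalised counts of Cdh1 and 670.1, 773 and 755 of Cdh6. The next lowest cell, 92, had 102 of Cdh1 and no count of Cdh6. Zeb1 was at 552, 594 and 1654 in those 3 cells against a let-7 median of 22.6, while Vim was at 319.8, 373 and 3431 against a median of 1590. Cells 70 and 71 were 1 of the 4 pairs as alike as runs of 1 cell, so the pattern may come from 2 cells rather than 3. Let-7 cells 81 and 21 had 429 and 174 of Cdh6 with 227 and 441 of Cdh1, so the genes were not exclusive. Pou5f1 was at 34.2, 44.5 and 264 in cells 71, 70 and 38, and Col1a1 had no count in any of them.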
